A study of Homo sapiens with 2 samples.

Results

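The genes VIL1, EPHB2 and ESRP1 each act in the epithelium of the gut, and the circular RNAs (circRNAs) that carry their names were described here. They were the entries of the deposited table whose host field holds exactly 1 of these 3 names. That gave 3 circRNAs of 1485 in the table, 1 from each host. The cells were SW620, an established line from human colorectal cancer. The treated cells had received HD-SB, which the labels name as Hedyotis diffusa-Sculellaria barbata, at 1 mg/mL for 24 h, and the other library is labelled Control with no further treatment named. Both libraries were made from total RNA depleted of ribosomal RNA and treated with RNase R, an enzyme that removes linear RNA. With 1 library per group the values have no replicate error, no test between groups was possible, and what differs between the libraries cannot be ascribed to the herbs. The values are levels of back-splice junctions and not of the host genes' mRNA. The word epithelial names the hosts here, and the identity of the cells could not be checked from which hosts gave a circRNA.

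A circRNA forms when the end of an exon is spliced back to the start of the same or an earlier exon, and only a read that crosses this back-splice junction identifies it. VIL1 encodes villin, an actin-bundling and actin-severing protein of the brush border, the carpet of microvilli on absorptive cells of the intestine. EPHB2 encodes a receptor tyrosine kinase for ephrin-B ligands, a Wnt target that is high in the proliferating crypts and helps keep crypt cells in place. ESRP1 encodes an RNA-binding protein that directs epithelial forms of alternative splicing. The 3 genes were taken here to represent the brush border, the crypt and the splicing programme of epithelial cells, and no such compartment was measured.

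The circRNA of VIL1 was hsa_circ_0058244 (chromosome 2, 219299249 to 219300157), that of EPHB2 was hsa_circ_0004085 (chromosome 1, 23107914 to 23111569), and that of ESRP1 was hsa_circ_0084927 (chromosome 8, 95676925 to 95677424). These positions are printed as deposited, and their genome build was not established. In the GRCh38 annotation of GENCODE 29, none of the 3 positions lay inside its host. That was usual in the table, since only 233 of the 1221 HD-SB circRNAs matched to 1 exon pair below (19.1%) lay inside theirs. All 3 had an identifier of circBase, a catalogue of circRNAs, as did 75.6% of the table. Each host gave a single circRNA, as did 79.3% of the 1196 host names in the table.

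Exons were assigned by the span alone. The span, end minus start plus 1, does not depend on where a build places the gene, and it was compared with the distance from the start of every exon to the end of the same or a later exon in each annotated transcript of the host. The span of all 3 circRNAs equalled exactly 1 such exon pair. Over the whole table, the span of 1231 of 1403 circRNAs with an annotated host equalled exactly 1 pair and that of 12 equalled several, 88.6% in all. With each span made 1 base longer, 1.85% found a pair, and none of the 3 did. The comparison does not show which inner exons or introns a circle keeps, so the lengths below are those of annotated exons joined without introns.

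For VIL1 the span of 909 bp equalled exons 14 to 15 of the 20 exons of its main transcript, 180 and 146 nt long, which join to 326 nt. For EPHB2 the span of 3656 bp equalled exons 2 to 3 of 17, 65 and 685 nt long, which join to 750 nt. For ESRP1 the span of 500 bp equalled exons 7 to 9 of 16, 111, 133 and 43 nt long, which join to 287 nt. The back-splice junction is what tells each circle from the linear mRNA, so the exon ends that meet there are shown for VIL1 and EPHB2, 100 bases on each side, 5′ to 3′ on the gene's own strand (plus in GRCh38 for both). Lower case is the end of the last exon of the circle, exon 15 of VIL1 and exon 3 of EPHB2. Capitals are the start of the circle, exon 14 of VIL1, and for EPHB2 all 65 bases of exon 2 followed by the start of exon 3. The sequences come from GENCODE 29 transcripts (GRCh38) and not from reads.
VIL1 junction: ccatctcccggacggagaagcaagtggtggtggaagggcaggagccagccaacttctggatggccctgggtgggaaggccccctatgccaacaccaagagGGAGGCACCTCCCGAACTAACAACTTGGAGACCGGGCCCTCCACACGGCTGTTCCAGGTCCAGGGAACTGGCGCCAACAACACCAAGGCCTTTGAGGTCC
EPHB2 junction: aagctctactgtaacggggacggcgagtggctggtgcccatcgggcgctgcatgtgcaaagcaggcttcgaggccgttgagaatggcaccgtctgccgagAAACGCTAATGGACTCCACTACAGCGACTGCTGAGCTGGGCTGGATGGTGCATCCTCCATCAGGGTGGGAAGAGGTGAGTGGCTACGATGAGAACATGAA

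**Figure D1:**
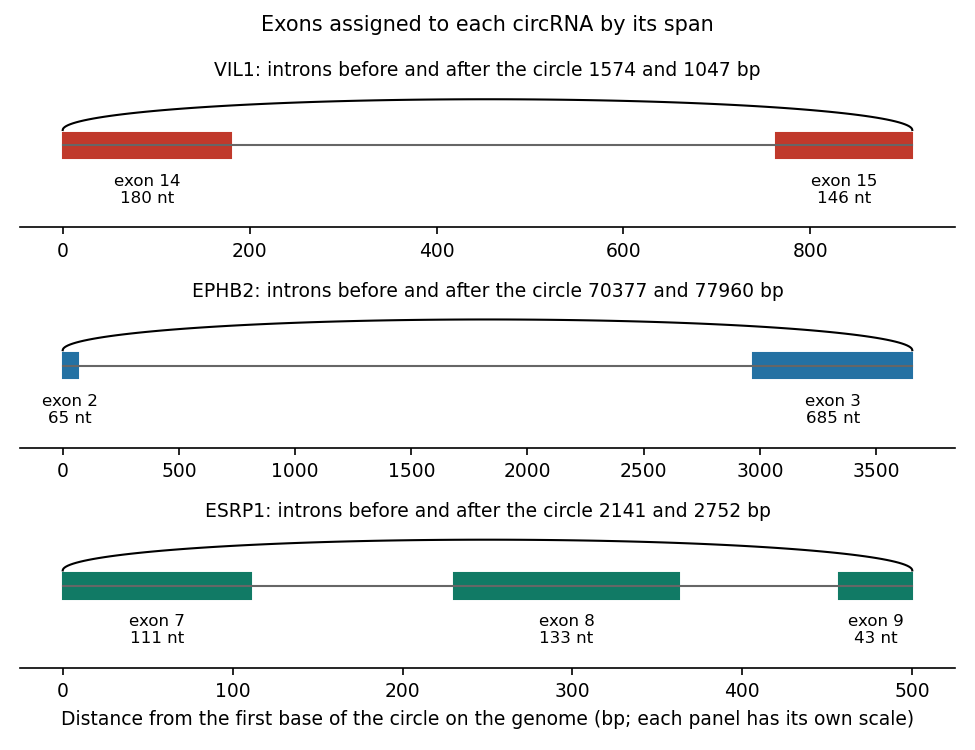
Exons assigned to the circRNAs of VIL1, EPHB2 and ESRP1, drawn to scale along the genome in bp from the first base of the circle, with a separate scale in each panel. Blocks are exons, the thin line is intron and the arc is the back-splice, and the panels show 2, 2 and 3 exons with flanking introns from 1047 to 77960 bp.

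All 3 circles consisted of coding exons, as did 986 of the 1221 HD-SB circRNAs with 1 exon pair (80.8%). The VIL1 exons covered residues 501 to 609 of the 827 residues of villin, ahead of the actin-binding headpiece at its carboxy terminus. The EPHB2 exons covered residues 21 to 271 of 1055, the amino-terminal stretch outside the cell where Eph receptors hold their ephrin-binding domain. The ESRP1 exons covered residues 215 to 311 of 677. The EPHB2 circle was the 1 of the 3 whose length is a multiple of 3, and the reading frame of the host met no stop codon around it. Of the 986 coding circles, 383 (38.8%) had such a length, so this feature of EPHB2 was common in the table. Of those, 382 had no stop codon, which largely follows from the length, since at most the codon across the junction is new. Translation was not measured.

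The circles were built from few exons. VIL1 and EPHB2 had 2 exons and ESRP1 had 3, the most usual numbers, with 64.4% of the 1221 circRNAs having 2 or 3. In joined length EPHB2, at 750 nt, was longer than 93.3% of the 1221, whose median was 371 nt, while VIL1 was longer than 31.04% and ESRP1 than 13.1%. The long exon 3 of EPHB2 made up 685 of its 750 nt. The GC content of the joined exons was 59.2% for VIL1, 59.5% for EPHB2 and 45.99% for ESRP1, against a median of 49.9%. EPHB2 started at exon 2, as did 326 of the 1221 circRNAs (26.7%). VIL1 started at exon 14, a higher exon number than the first exon of 88.4% of them, which is not a distance along the gene.

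The introns beside the circles set EPHB2 apart from the other members. Introns that flank circularised exons are known to be longer than usual in many genes, since base pairing between them can bring the exon ends together. EPHB2 had an upstream intron of 70377 bp and a downstream intron of 77960 bp. Of the 1221 circRNAs, 7 had a shorter flanking intron that was longer than that of EPHB2, and 19 of 1219 (1.56%) had both introns at or above 50000 bp. That upstream intron is the one in 4 of the 5 EPHB2 transcripts that hold the exon pair. In the other, which uses another first exon, it is 6176 bp. At that length the shorter intron of EPHB2 would lie between the median of 3959 bp and the third quartile of 10260 bp, so its high rank depends on the transcript. Which transcript gave rise to the circle was not tested. VIL1 lay at the opposite side of the range, with introns of 1574 and 1047 bp, against medians of 7196 bp upstream and 6428 bp downstream. In 66 of 1219 circRNAs (5.41%) both introns were shorter than the longer one of VIL1. ESRP1 had 2141 and 2752 bp, also below both medians.

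**Figure D2:**
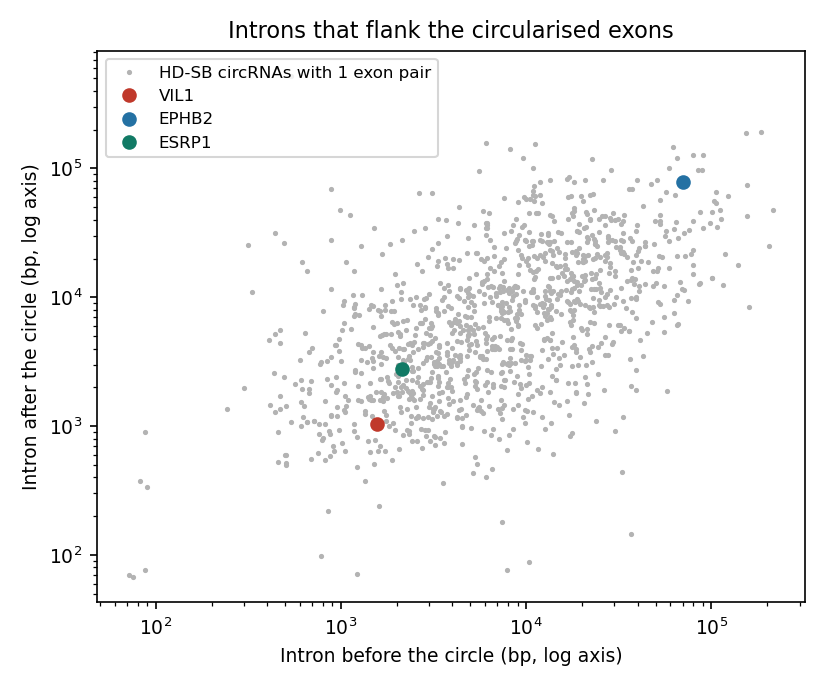
Length of the intron before (x axis) and after (y axis) the circularised exons, in bp on log axes, for each HD-SB circRNA with 1 exon pair (grey points). VIL1 lies low on both axes (1574 and 1047 bp), ESRP1 near it (2141 and 2752 bp) and EPHB2 at the upper right (70377 and 77960 bp). For EPHB2 the upstream intron drawn is that of 4 of 5 transcripts, and in the other it is 6176 bp.

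The table's values are back-splice reads per 1000000 such reads in the same library (CPM). They were whole multiples of 1 step per library and were turned back into reads. The HD-SB library listed 11570 reads on 1475 circRNAs and the control library 91 reads on 32. The step was set so that the smallest listed value of each library is 2 reads, and the read totals rest on that choice. The listing rule is not known, and a circRNA that is not listed was taken to have had 0 or 1 read, an assumption on which the control limits and share ratios below rest. All intervals are 95% Clopper-Pearson intervals for counting error alone, and amplified copies of 1 molecule would make them too narrow.

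VIL1 had 18 reads in the HD-SB library, 1556 CPM, or 0.156% of its reads (0.0922 to 0.246). EPHB2 had 16 reads, 1383 CPM, or 0.138% (0.0791 to 0.224). ESRP1 had 5 reads, 432 CPM, or 0.0432% (0.0140 to 0.101). VIL1 and EPHB2 stood high in the library, above 93.8% and 92.7% of its 1475 circRNAs, and ESRP1 had the median number of 5 reads, which 172 circRNAs shared. The most abundant circRNA of the library had 373.

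The order of the 3 hosts rests on small counts. VIL1 and EPHB2 did not differ beyond counting error, with a ratio of reads of 1.13 (0.542 to 2.36). The ratio of VIL1 to ESRP1 was 3.60 (1.29 to 12.4) and that of EPHB2 to ESRP1 was 3.20 (1.12 to 11.2), intervals that exclude equal reads in this 1 library. A back-splice read counts 1 junction per circle whatever its length, so these are levels per junction.

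**Figure D3:**
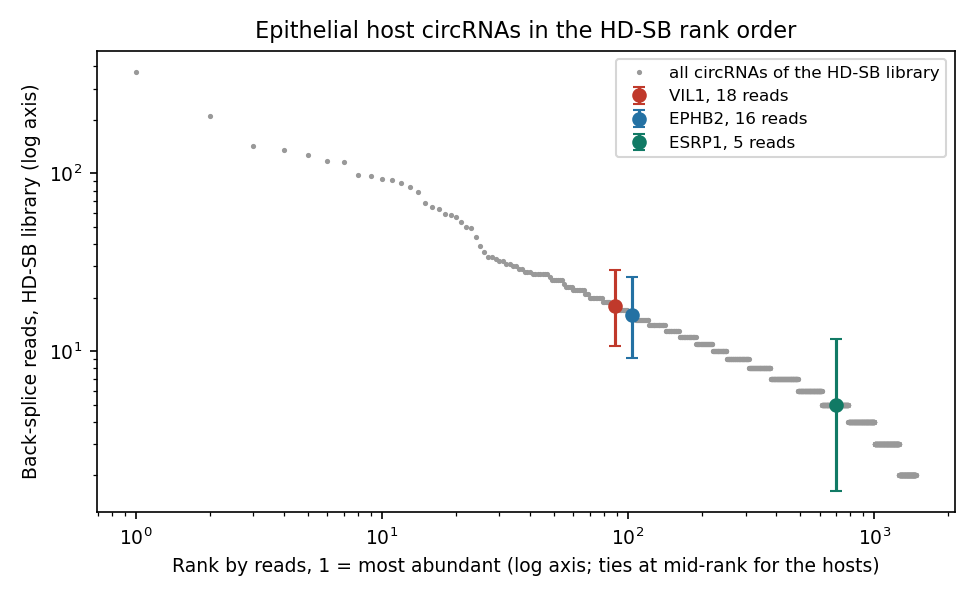
Back-splice reads of each circRNA of the HD-SB library (y axis, log) against its rank (x axis, log), with all circRNAs in grey and the 3 hosts in colour. Bars are 95% Clopper-Pearson intervals, and VIL1 (18 reads) and EPHB2 (16 reads) lie together above ESRP1 (5 reads).

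The HD-SB and control libraries were then set side by side. None of the 3 was listed in the control library, where each stood at the filler value of 0.001. Being listed in HD-SB and not in the control was the rule in this table, at 97.8% of its circRNAs (1453 of 1485), so 3 of 3 is near the background. Together the hosts held 39 HD-SB reads, 0.337% (0.240 to 0.461). At that share the 91 control reads would have held 0.307 reads of all 3 hosts, and 0.142 of VIL1, 0.126 of EPHB2 and 0.0393 of ESRP1. A count of 0 in the control has a Clopper-Pearson limit of 3.97%, and the simpler limit of 3 reads of 91 is 3.30%. A count of 1 read has an interval up to 5.97%. All of these limits lie above the HD-SB shares, so a higher share in HD-SB was not detectable at this depth.

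On the log2(value + 172.861 CPM) scale, with unlisted values taken as 0, the difference of HD-SB minus control was 3.32 for VIL1, 3.17 for EPHB2 and 1.81 for ESRP1. These sizes follow from the reads in HD-SB and the pseudocount, since the control value was taken as 0. All 3 were past a 2-fold threshold, as were 96.0% of the 797 circRNAs whose mean of both libraries was at or above the median of 216 CPM, and 4.02% of the 797 were at least 2-fold lower. ESRP1 lay exactly at that filter value, with 169 circRNAs in all. With 0.5 read of each library as the pseudocount, the differences turned to -1.78, -1.95 and -3.53, because 0.5 read is worth more CPM in the shallow control library. If the control held 1 read of VIL1, the ratio of its HD-SB to its control share had an interval of 0.0224 to 5.90, and for EPHB2 and ESRP1 the intervals were 0.0196 to 5.28 and 0.00440 to 1.86. All 3 intervals include an equal share. For an interval above an equal share, with no control read at all, 471 HD-SB reads would have been needed.

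**Figure D4:**
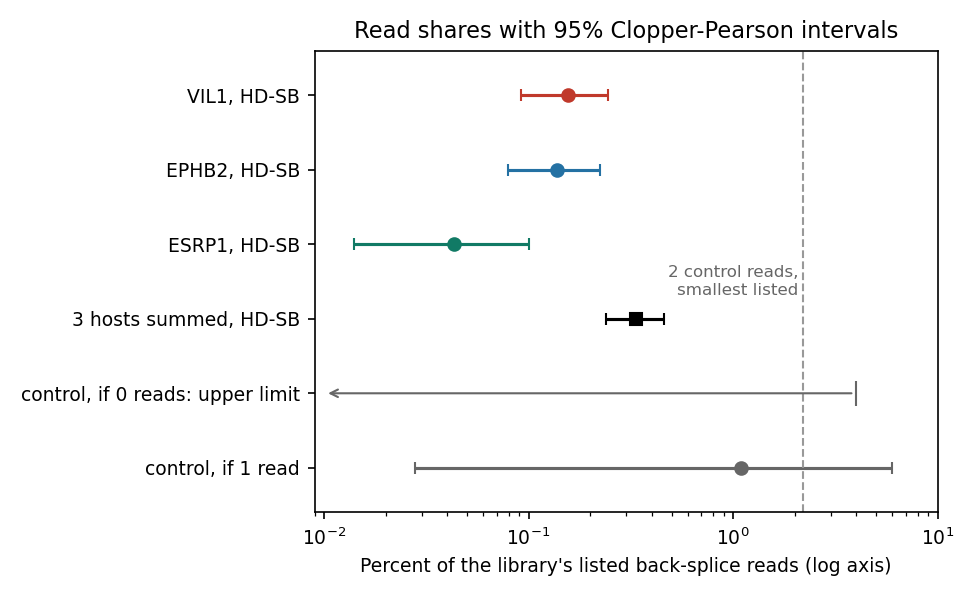
Percent of listed back-splice reads (x axis, log) for VIL1, EPHB2, ESRP1 and their sum in the HD-SB library, with 95% Clopper-Pearson intervals, beside the control library at 0 reads (upper limit) or 1 read (interval). The dashed line marks 2 control reads, 2.20%, the smallest share listed in the control, which lies to the right of every HD-SB interval.

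Other genes grouped with these hosts were read from lists of hosts. Over all lists, those of other cell types included, 14 of 156 genes gave a circRNA (8.97%), and the small counts per list below are read against that. VIL1, EPHB2 and ESRP1 count in their lists and in that total, though each was described here only because it gave a circRNA. The lists were also chosen with earlier results of these data known, and 8.97% is not a share over all genes. In the brush border and enterocyte list, 2 of 27 genes gave a circRNA, VIL1 and BAIAP2L2, which shapes membranes in intestinal epithelial cells (3 reads). In the list of crypt genes, Eph receptors and ephrins, 5 of 22 did, with 42 reads, 0.363% (0.262 to 0.490). These were EPHB2, the Eph receptors EPHB4 (hsa_circ_0001730, 14 reads) and EPHA2 (hsa_circ_0005240, 5 reads), the Wnt-restraining ubiquitin ligase RNF43 (4 reads) and AXIN2, a negative feedback gene of Wnt signalling (3 reads, in an entry with 2 host names). In the list of epithelial splicing regulators, their targets and more general splicing factors, 2 of 13 genes did. These were ESRP1 and, among the general factors, MBNL1, with 5 reads each. EPCAM, an epithelial adhesion protein, was the 1 of 27 junction and keratin genes, with 3 circRNAs of 9, 8 and 3 reads, none of which had a circBase identifier. Goblet, Paneth and endocrine genes gave 0 of 10. None of these circRNAs was listed in the control.

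The exons of the 3 Eph receptors lay in different parts of the proteins by residue number. EPHB4 matched exons 11 to 12 (362 nt, residues 586 to 706 of 987) and EPHA2 exons 4 to 5 (489 nt, residues 275 to 438 of 976), whereas EPHB2 matched exons 2 to 3. The introns beside the EPHB4 exons were 443 bp upstream and 5166 bp downstream.

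Lists of other cell types were read in the same way. Mesenchymal and fibroblast genes gave 0 circRNAs from 15 genes, among them ZEB1, VIM and CDH2, and endothelial genes gave 0 from 6. Leukocyte genes gave 2 of 14, LCK with 9 reads and PTPN22 with 4, together 0.112% (0.0598 to 0.192). Neural genes gave 1 of 6, GRIN2B with 4 reads. A gene without a circRNA may still be expressed, so these counts do not measure cell identity.

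By the nearest read counts in both libraries, then the nearest span, the circRNAs most like that of VIL1 were those of PCNT, a centrosome protein (hsa_circ_0002903, span 809 bp), ZNF398 (hsa_circ_0004351, 396 bp) and TNS3, a focal adhesion protein (hsa_circ_0006229, 1602 bp), all with 18 HD-SB reads and none listed in the control. They were 3 of 6 others with these same counts, and a likeness over 2 libraries is a description.

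The title of the series names the microRNA hsa-miR-204-5p, so its seed match was looked for in the 3 circles. Its mature sequence from RefSeq (GRCh38.p14), with the seed in capitals, is shown first.
hsa-miR-204-5p: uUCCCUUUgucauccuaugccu
The match to the seed, AAAGGGA, was searched on the strand of the RNA and across the back-splice. It occurred in none of the circles of VIL1, EPHB2 and ESRP1, and in 52 of the 1221 circles (4.26%). Among circles within 1.2 times of their lengths it occurred in 3.79% for VIL1, 2.60% for EPHB2 and 3.36% for ESRP1. The absence of these letters says nothing on binding.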

How the data were processed

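The table holds 1 column for each of 2 SW620 libraries. Per the file headers the deposited values are TPM, but the numbers are those of CPM. The listed values of both columns sum to 1000000 when rounded, and 100% of the listed values are a whole number of steps (to within 0.01 of a step) at any span. A step is 86.4 CPM in HD-SB and 10989 CPM in the control. How circRNAs were called and filtered, and whether duplicates were removed, is not given in the sources used here. The submitters' processing notes name FastQC, HISAT2 2.1.0 and GRCh38 but not what each was used for. Reads were value divided by step, and 0.001 was treated as not listed, so both totals leave out unlisted reads.

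Exon pairs came from GENCODE 29 basic transcripts, taking the transcript with the most exons (named main above), and sequences by exon order from its transcript file. Entries of 1 exon pair with a flanking intron on both sides numbered 1219. The code of the matching and of the fold rule was checked on simulated data without noise. The simulated spans were made from exon pairs of the same models that were then searched, so their recovery was fixed by construction. Whether the fold rule holds for unlisted control values at the depth of the control library was not tested. Intervals used scipy 1.17.1. All circRNAs of the 3 hosts are named, with the hosts of the lists that gave a circRNA, apart from an item that is not reported here. The members and lists were chosen with earlier results of these data known. Alternatives covered the denominator, listing minimum, pseudocount, scaling, filter, fold threshold and, added after seeing the data, the annotation and the span.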

Additional observations from a re-analysis of the deposited data

How the results depend on the processing

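The number of circRNAs (3) and their median span (909 bp) did not change under any alternative tried for them. For the filters this was fixed in advance, since all 3 had a circBase identifier, a single host name and at least 5 HD-SB reads. The match of all 3 to 1 exon pair held with comprehensive transcripts and was lost for all 3 with spans 1 base longer, the control of the matching. The share of 0.337% moved between 0.337% and 0.411%, within its interval. Every alternative kept the same 39 reads and could only leave or lower the total, so the share could not fall. The log2 differences of VIL1, EPHB2 and ESRP1 were 1.70, 1.58 and 0.70 with the pseudocount 4 times larger, 5.21, 5.04 and 3.46 with it 4 times smaller, and turned to -1.78, -1.95 and -3.53 with 0.5 read of each library, all by the construction of a ratio to an unlisted value. Of all circRNAs, the 765 at least 2-fold higher became 296 with the larger pseudocount, 4 with 0.5 read, 1453 with no filter and 366 with the top 25% of means. The 32 at least 2-fold lower became 772 with 0.5 read and 17 with control values scaled by the median ratio of shared circRNAs (0.0406). The share of spans equal to an exon pair, 88.6%, was 90.7% with comprehensive transcripts, which add pairs, and 1.85% with spans 1 base longer, both added after seeing the data. No paired analysis was possible because there was only 1 library in a group. Depth limits what can be said of the libraries, with 91 reads in the control.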
